A study of Drosophila melanogaster with 18 samples.

Results

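The genes described here were 7 regulators of the Drosophila mesoderm, twi, sna, htl, stumps, Mef2, tin and zfh1, out of 13981 protein-coding genes of the annotation. They were given as a fixed set by name, and their peaks were all called peaks that overlapped the gene body or lay within 5 kb of it in dm6. GAF and H4K8ac had been profiled by ChIP-seq in mitotic and in interphase embryos of the Wild type strain yw, aged from 1 to 2.5 h after egg laying, with about 1000 embryos per sample. The embryos were stained for H3S10ph, the phosphorylated histone mark of mitotic chromosomes, and sorted into mitotic and interphase pools, with no other treatment. There were 2 mitotic and 3 interphase GAF samples, 2 mitotic and 2 interphase H4K8ac samples, and an input for each of them, 18 samples in all. The 4 peak lists held 1839 mitotic and 4970 interphase GAF peaks, and 5405 mitotic and 5806 interphase H4K8ac peaks. Each list was called on the mean of its replicates and holds positions only, so that no replicate spread, peak height or depth can be attached to a peak, and no test was run. A fixed threshold on a mean signal also lets strength, depth and the number of replicates set how many peaks are called and how long they are. Whole embryos were used, in which the mesoderm is only the ventral part, and the share of a peak that came from mesodermal nuclei was not measured.

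GAF, the GAGA factor encoded by Trithorax-like, binds repeats of the letters GAGAG through a zinc finger and is known for opening chromatin at promoters and enhancers. Most transcription factors leave condensing chromosomes, and those that stay are studied as mitotic bookmarks, which could hand an active state to the daughter nuclei. H4K8ac, acetylation of lysine 8 on histone H4, is a mark of active chromatin. In the early embryo the maternal Dorsal gradient turns on twi and sna in ventral nuclei, these direct invagination of the mesoderm, FGF signalling through Htl and Stumps spreads the mesodermal cells over the ectoderm, and Mef2, Tin and Zfh1 then direct muscle, heart and other mesodermal fates. An interphase GAF peak is called retained below when a mitotic GAF peak overlapped it by at least 1 bp, and interphase-only otherwise.

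The sequences under the retained peaks show how the GAGAG letters were arranged, and interphase-only peaks near a start are shown beside them, that of tin being the only 1 of 14 interphase-only peaks with 0 GAGAG. They were read from the dm6 genome of RefSeq in the direction of transcription of the gene, with annotated UTR bases left out and at most 300 bases each. Capitals mark GAGAG or its reverse complement CTCTC, counted without overlap.
sna, mitotic peak at the promoter, chr2L:15478301-15478600, minus strand: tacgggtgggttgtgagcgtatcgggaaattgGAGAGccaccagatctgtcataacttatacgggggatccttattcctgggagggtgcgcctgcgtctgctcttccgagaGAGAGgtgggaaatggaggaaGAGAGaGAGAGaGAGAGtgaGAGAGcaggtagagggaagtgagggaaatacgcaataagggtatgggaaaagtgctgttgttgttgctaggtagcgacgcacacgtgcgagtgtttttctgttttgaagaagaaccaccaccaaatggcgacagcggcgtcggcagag
htl, mitotic peak at the htl-RA and htl-RC promoter, chr3R:18049367-18049650, minus strand: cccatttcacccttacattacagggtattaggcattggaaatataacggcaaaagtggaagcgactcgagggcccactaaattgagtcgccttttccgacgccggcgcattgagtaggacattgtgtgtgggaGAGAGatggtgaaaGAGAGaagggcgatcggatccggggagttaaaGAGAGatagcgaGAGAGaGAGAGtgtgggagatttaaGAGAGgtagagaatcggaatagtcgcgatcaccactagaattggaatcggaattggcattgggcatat
stumps, intronic mitotic peak, chr3R:14598301-14598500, plus strand: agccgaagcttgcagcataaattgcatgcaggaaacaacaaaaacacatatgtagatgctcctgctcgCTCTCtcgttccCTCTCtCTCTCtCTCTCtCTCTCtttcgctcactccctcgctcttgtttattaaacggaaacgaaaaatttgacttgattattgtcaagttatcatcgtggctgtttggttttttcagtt
zfh1, upstream mitotic peak, chr3R:30764151-30764450, plus strand: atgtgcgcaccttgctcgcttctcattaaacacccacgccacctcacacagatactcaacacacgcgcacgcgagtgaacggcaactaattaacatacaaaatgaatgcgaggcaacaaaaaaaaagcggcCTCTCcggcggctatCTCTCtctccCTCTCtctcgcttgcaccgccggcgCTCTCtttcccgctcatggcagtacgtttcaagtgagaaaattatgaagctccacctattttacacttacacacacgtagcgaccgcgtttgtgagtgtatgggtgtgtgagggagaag
zfh1, mitotic peak at the promoter, chr3R:30765588-30765887, plus strand: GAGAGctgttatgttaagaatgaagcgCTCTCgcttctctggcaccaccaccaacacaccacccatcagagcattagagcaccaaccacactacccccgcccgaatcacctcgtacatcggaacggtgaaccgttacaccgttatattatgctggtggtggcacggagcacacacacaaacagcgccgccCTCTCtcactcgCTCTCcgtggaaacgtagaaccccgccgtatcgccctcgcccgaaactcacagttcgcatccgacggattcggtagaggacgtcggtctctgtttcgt
stumps, interphase-only peak before the stumps-RC start, chr3R:14576851-14577150, plus strand: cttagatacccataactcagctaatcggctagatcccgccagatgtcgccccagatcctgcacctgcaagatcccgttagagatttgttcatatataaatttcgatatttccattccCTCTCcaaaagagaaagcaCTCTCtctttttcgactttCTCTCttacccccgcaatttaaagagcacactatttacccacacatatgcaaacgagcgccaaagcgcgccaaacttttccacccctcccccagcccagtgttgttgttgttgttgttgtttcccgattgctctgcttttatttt
tin, interphase-only peak at the promoter, chr3R:21378701-21378976, plus strand: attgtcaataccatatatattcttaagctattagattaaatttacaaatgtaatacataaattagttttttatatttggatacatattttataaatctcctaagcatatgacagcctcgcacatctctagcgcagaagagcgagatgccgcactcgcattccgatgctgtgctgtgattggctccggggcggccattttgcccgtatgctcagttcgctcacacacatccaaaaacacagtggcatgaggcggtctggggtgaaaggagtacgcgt

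The stretch of sna held 6 GAGAG, of which 4 stood in a run, and the whole mitotic peak held 7. In htl all 6 had the same orientation and lay between -151 and -68 bp from the TSS. In stumps 5 copies of CTCTC followed each other between 1571 and 1601 bp downstream of the start of stumps-RB, the last 4 of them spaced by a single base. Each zfh1 stretch held 4 motifs, in the upstream peak all as CTCTC and at the promoter in both orientations. The interphase-only stumps stretch held 3, all as CTCTC, and the tin stretch held 0, and so did its whole peak. The other interphase-only peaks over a TSS of their gene held 2 at twi and 5 at Mef2-RF, so that tin was the extreme and not the rule.

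A mitotic GAF peak was called at 5 of the 7 genes and an interphase GAF peak at all 7, beside 16.0% of protein-coding genes with mitotic and 37.5% with interphase GAF. The mitotic list held peaks at sna, htl, stumps, Mef2 and zfh1, and none at twi or tin. There were 7 mitotic and 21 interphase GAF peaks at the 7 genes, and 7 of the 21 were retained (33.3%, Wilson 95% interval 17.2% to 54.6%, counting error only), beside 31.2% of all interphase GAF peaks. Among genes with an interphase GAF peak, 42.8% of protein-coding genes had a retained one, beside 5 of 7 here. The windows searched ran over 11668 bp at sna to 72952 bp at twi, against a median of 12163 bp over protein-coding genes, and a longer window can hold more peaks. All 7 mitotic GAF peaks lay wholly inside an interphase peak, as did 89.7% of the whole mitotic GAF list, and 0 were called in mitosis alone. The mitotic peak took 33.3% to 68.2% of the length of its interphase peak, with a median of 57.1%, beside 42.9% over all retained peaks. The study sonicated mitotic chromatin for longer than interphase chromatin, and an effect of this on peak length was not tested. With an overlap of at least 50% of the interphase peak asked for, 4 peaks at 3 genes, sna, Mef2 and zfh1, counted as retained.

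**Figure D1:**
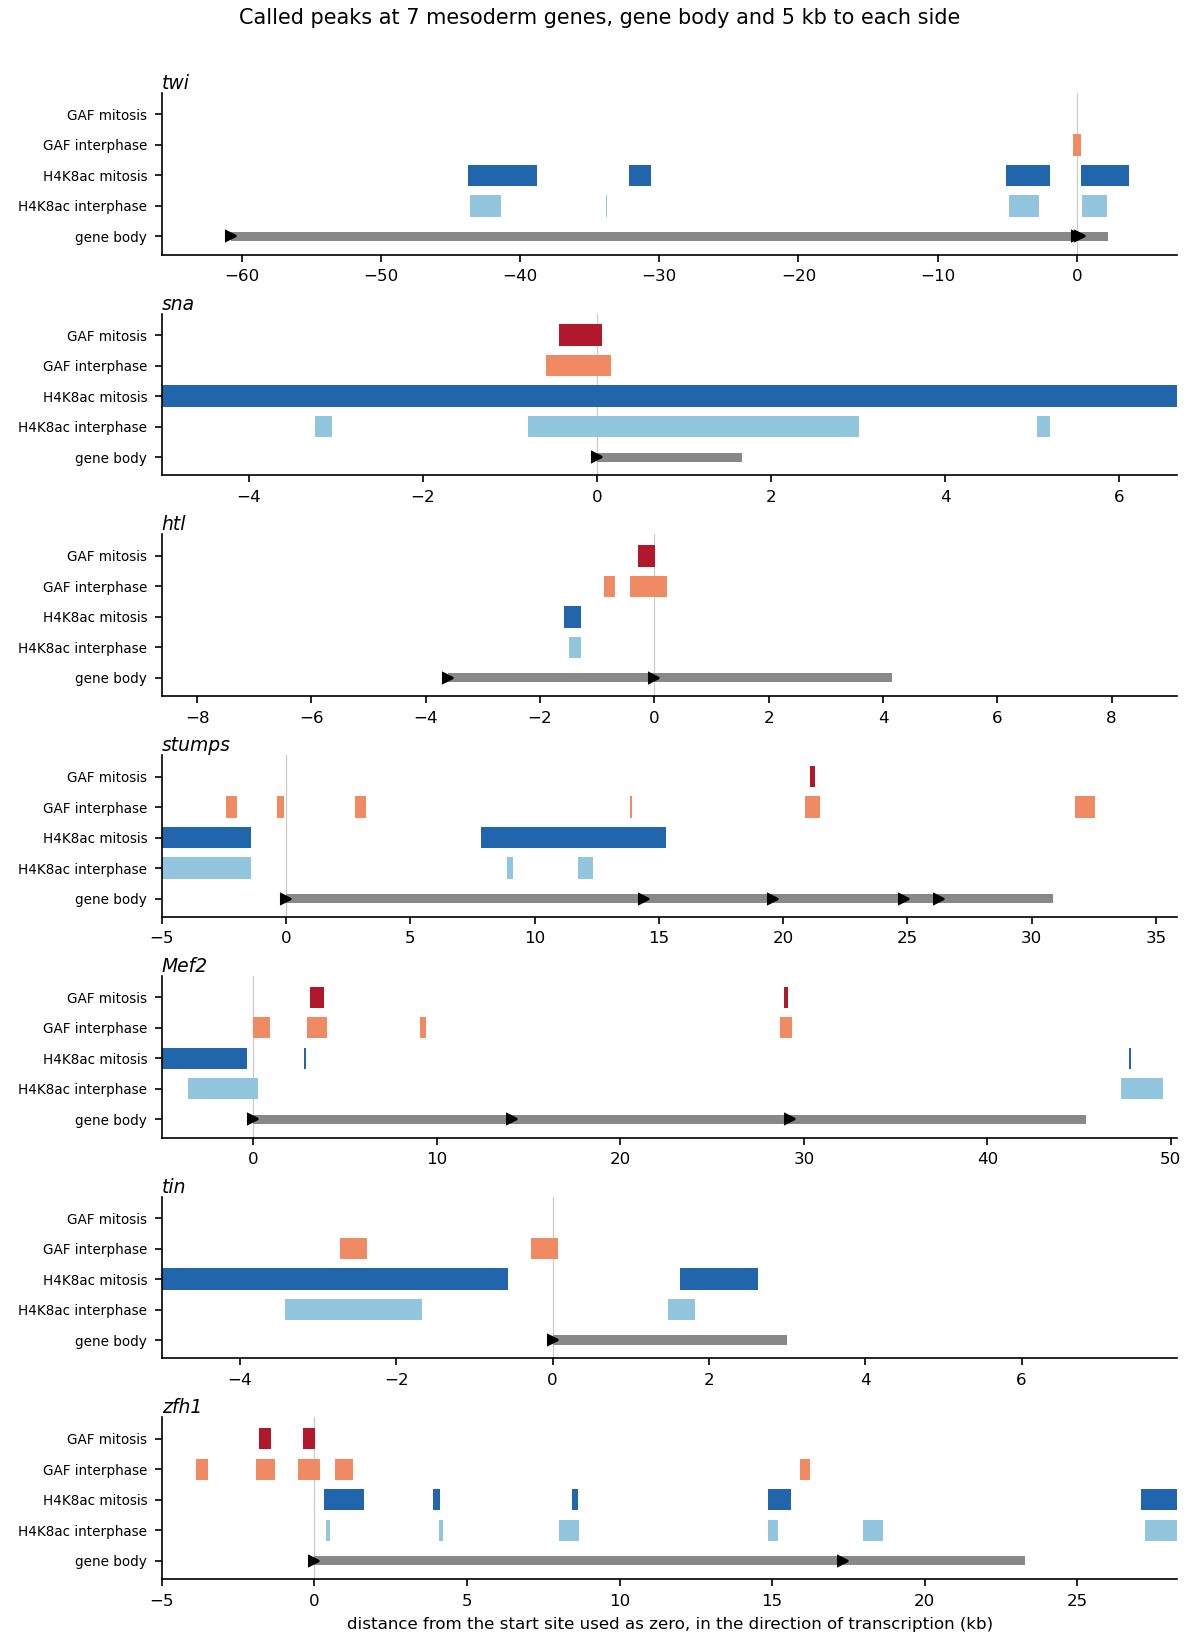
Called peaks at the 7 genes, drawn along the distance in kb from a start site in the direction of transcription, with mitotic tracks above interphase tracks. Zero is the first annotated start inside an interphase GAF peak, or the first start at stumps, which has none, grey bars are gene bodies, and triangles are annotated starts. The GAF mitosis track is empty at twi and tin, and at sna the H4K8ac mitosis track fills the window.

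Of 17 annotated TSSs of the 7 genes, 3 lay in a mitotic and 8 in an interphase GAF peak, beside 2.84% and 9.13% of 19643 protein-coding TSSs. The 3 were those of sna, of htl-RA with htl-RC, and of zfh1-RB with zfh1-RE. By place, 7 of the 21 interphase peaks held a TSS of their gene and 4 of these were retained, 8 had their centre in an intron without a TSS and 2 were retained, 5 lay upstream and 1 was retained, and the 1 downstream was interphase-only. The nearest coding TSS belonged to another gene at 3 of the 21 peaks, none of them retained by the overlap of the GAF lists. The authors' list of retained peaks holds the stumps peak near CG7987.

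twist (twi, FBgn0003900) encodes the bHLH factor that determines the mesoderm, and spans 22985374 to 23048325 on the plus strand of chromosome 2R. Its long span comes from the transcript twi-RC, which starts 60734 bp before twi-RA, and the window therefore takes in ground far from the embryonic promoter. It had 0 mitotic GAF peaks and 1 interphase GAF peak, of 550 bp from 23045851 to 23046401. That peak covered the starts of twi-RA and twi-RB, had its centre 17.5 bp downstream of the twi-RA start, and held 2 GAGAG. The nearest mitotic GAF peak was 111657 bp from the start of twi-RA. GAF at the twi promoter was thus called in interphase only. Its acetylation began where the GAF peak ended: the mitotic H4K8ac peak ran from 23046401 to 23049851 (3450 bp) and the interphase one from 23046501 to 23048251 (1750 bp). Neither reached the TSSs, which lay 78 bp (twi-RB) and 292 bp (twi-RA) from the mitotic H4K8ac peak. Another acetylated stretch lay upstream, 3150 bp long in mitosis and 2100 bp in interphase, and covered a TSS of the neighbour CG42741 in both stages. The distant part of the window, where the nearest coding TSS was that of CG9896, held mitotic peaks of 4950 and 1600 bp and interphase peaks of 2250 and 100 bp.

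snail (sna, FBgn0003448) encodes a zinc finger repressor that keeps ectodermal genes off in the mesoderm, and spans 15476593 to 15478260 on the minus strand of chromosome 2L. Its only GAF peak lay over the TSS and was retained, with 500 bp in mitosis and 750 bp in interphase. The mitotic peak held 7 GAGAG and the interphase peak 9, and 5 of them stood within 100 bp. By the overlap of the GAF lists this was the only retained peak of the 7 genes that lay in H4K8ac in either stage. The mitotic H4K8ac peak ran over 15950 bp, from 15471051 to 15487001, and covered 100% of the sna window and a TSS of the neighbour Tim17b2. In interphase the same ground held 3 separate H4K8ac peaks of 3800, 200 and 150 bp, which covered 35.6% of the window. They ran from 15475251 to 15479051, from 15481301 to 15481501 and from 15473051 to 15473201. The gaps between them were only a little longer than 2000 bp, the gap within which stretches of this list were joined. All 4 lists covered the TSS of sna, a pattern that 196 other coding genes had.

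heartless (htl, FBgn0010389) encodes the FGF receptor of the mesoderm, and spans 18045216 to 18052984 on the minus strand of chromosome 3R. It had 1 mitotic GAF peak of 300 bp and 2 interphase GAF peaks, of 650 and 200 bp. The longer was retained and lay over the start of htl-RA and htl-RC, with all of its 6 GAGAG inside the mitotic peak. The shorter lay 685 bp upstream, held 3 GAGAG and was interphase-only. By the overlap of the GAF lists it was thus the promoter peak of htl that had a mitotic counterpart. The authors' list of retained peaks instead holds a single peak of 1350 bp that overlaps both. H4K8ac was sparse here, with 1 mitotic peak of 300 bp and 1 interphase peak of 200 bp that shared an edge 1284 bp upstream of this TSS. The start of htl-RB, farther upstream, had no GAF peak in either stage, and the nearest was 3333 bp away in mitosis and 2733 bp away in interphase.

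stumps (FBgn0020299), which encodes the adaptor that couples the FGF receptors to their downstream pathway, spans 14577217 to 14608079 on the plus strand of chromosome 3R. It had only 1 mitotic GAF peak but 6 interphase GAF peaks, the most of the 7 genes. None of the 6 covered any of its 5 annotated TSSs. The nearest to a TSS lay 67 bp before the start of stumps-RC, was 300 bp long with 3 GAGAG, and was interphase-only. The retained peak lay in an intron, 200 bp in mitosis and 600 bp in interphase, 1303 bp from the start of stumps-RB and over the annotated long non-coding RNA CR46153. Its 200 bp mitotic part held 5 of the 6 GAGAG. The peak with the most GAGAG at this gene, 800 bp with 7, lay 871 bp past the 3' end over the TSS of CG14853, and was interphase-only. The remaining 3 interphase-only peaks were of 450, 450 and 100 bp, and of these the most upstream was nearest to the TSS of CG7987. That peak is held by the authors' list of retained peaks, so it is interphase-only by the overlap of the GAF lists only. H4K8ac lay upstream, over CG7987 and its neighbours, with 11200 bp in mitosis and 10950 bp in interphase. It also lay inside the gene, with 1 peak of 7450 bp in mitosis, where interphase had only peaks of 600 and 250 bp. The 7450 bp mitotic peak covered the start of stumps-RE and the 100 bp GAF peak, and neither was covered by an interphase H4K8ac peak.

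Mef2 (FBgn0011656), the MADS-box factor required for muscle differentiation, spans 9913496 to 9958858 on the minus strand of chromosome 2R. It had 2 mitotic and 4 interphase GAF peaks, and its promoters differed. The interphase peak over the start of Mef2-RF and Mef2-RH was 950 bp long with 5 GAGAG and was interphase-only. At the start shared by 8 transcripts, Mef2-RA among them, the peak was retained, with 250 bp in mitosis, beginning 86 bp from that start, and 650 bp with 5 GAGAG in interphase. By the overlap of the GAF lists the longer of the promoter peaks thus had no mitotic counterpart and the shorter did, whereas the list of retained peaks deposited by the authors holds both. The other retained peak lay in an intron, 750 bp in mitosis and 1100 bp in interphase. It held 13 GAGAG, the highest number of the 21 peaks, and all 13 were inside the mitotic peak. The fourth peak, 350 bp with 2 GAGAG, was interphase-only. At the Mef2-RF start the mitotic H4K8ac peak of 5800 bp began 342 bp upstream, while the interphase one of 3800 bp covered the start, and both covered TSSs of the neighbours Pal1 and Pdrg1. Other H4K8ac here came to peaks of 150 and 100 bp in mitosis and 2250 bp in interphase, of which the 150 and 2250 bp peaks were nearest to Etf-QO. At the retained promoter peak the nearest H4K8ac was 18350 bp away in mitosis and 17950 bp in interphase.

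tinman (tin, FBgn0004110) encodes the NK homeobox factor of the heart and visceral mesoderm, and spans 21378977 to 21381970 on the plus strand of chromosome 3R. It had 0 mitotic GAF peaks and 2 interphase GAF peaks of 350 bp each. The peak over its only TSS held 0 GAGAG, which 162 of the 4970 interphase peaks did. The other held 1 GAGAG, lay 2376 bp upstream and was nearest to the TSS of mod(mdg4), whose gene body it overlapped. The nearest mitotic GAF peak was 55173 bp from the TSS of tin. H4K8ac lay on both sides of the TSS and not over it, upstream with 5700 bp in mitosis and 1750 bp in interphase, and inside the gene with 1000 bp in mitosis and 350 bp in interphase. The upstream mitotic H4K8ac peak covered the TSS of mod(mdg4) and came within 576 bp of the TSS, and the nearest interphase one was at 1473 bp.

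zfh1 (FBgn0004606), which encodes a zinc finger and homeodomain protein of the gonadal, cardiac and muscle-forming mesoderm, spans 30765926 to 30789202 on the plus strand of chromosome 3R. It had 2 mitotic and 5 interphase GAF peaks, and 4 of the 5 lay within 5 kb around the start of zfh1-RB and zfh1-RE. The peak over this start was retained, 400 bp in mitosis and 700 bp in interphase, as was its upstream neighbour, 400 bp in mitosis and 650 bp in interphase, whose centre lay at -1600.5 bp. Both held 4 GAGAG in the mitotic peak and 5 in the interphase peak. On either side of this retained pair lay interphase-only peaks, 400 bp long at -3675.5 bp and 600 bp long at 974.5 bp, with 3 GAGAG each. The fifth, of 300 bp with 2 GAGAG, lay 1108 bp before the start of zfh1-RA. H4K8ac began downstream of the promoter, with 1300 bp in mitosis and 150 bp in interphase starting 324 and 374 bp from the TSS, and neither retained peak overlapped it. In all the zfh1 window held 5 mitotic and 6 interphase H4K8ac peaks, of 200 to 1550 bp in mitosis and 150 to 1200 bp in interphase.

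Retained peaks were mostly the longer ones, at these genes and over the whole list. Retained peaks at the 7 genes were 600 to 1100 bp long (median 650 bp) and interphase-only peaks 100 to 950 bp (median 375 bp), beside medians of 700 and 300 bp over all retained and all interphase-only peaks. Of the peaks of at least 650 bp, 6 of 8 were retained, beside 82.7% of all such peaks. From 450 to 600 bp it was 1 of 5, beside 48.2%, from 300 to 400 bp 0 of 6, beside 5.63%, and from 100 to 250 bp 0 of 2, beside 2.46%. The exceptions among long peaks were the Mef2-RF promoter (950 bp) and the stumps peak at CG14853 (800 bp), of which the authors' list of retained peaks holds the Mef2-RF one, so that it is an exception by the overlap of the GAF lists only. That list also holds shorter peaks counted here as interphase-only, of 200 bp at htl and of 450 bp at stumps near CG7987.

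Retained peaks held 5 to 13 GAGAG and interphase-only peaks 0 to 7, so the ranges overlapped. The means were 7 ± 3 (SD over 7 retained peaks) and 2.79 ± 1.67 (SD over 14 interphase-only peaks), beside 6.37 ± 5.21 and 3.39 ± 3.07 over all 1552 retained and all 3418 interphase-only peaks. Longer peaks have room for more motifs, and this was handled in other counts. At the 7 genes the retained peaks kept the higher mean in each, while over the list the order turned per kb. In a window of 400 bp at the peak centre the means were 5.14 ± 0.90 for retained and 2.64 ± 1.22 for interphase-only peaks at the 7 genes, beside 4.28 ± 2.80 and 3.27 ± 1.75 over the list. Per kb of peak they were 9.37 ± 2.00 for retained and 7.41 ± 5.03 for interphase-only peaks at the 7 genes, whereas over the list the retained peaks were the lower, with 8.10 ± 4.60 against 12.0 ± 7.86. Peaks of a pooled list are not replicates, so these SDs describe the spread among peaks only. The classes are those by the overlap of the GAF lists. The authors' list of retained peaks also holds the 200 bp htl peak and the stumps peak near CG7987, with 3 GAGAG each. It holds the Mef2-RF peak too, with 5.

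**Figure D2:**
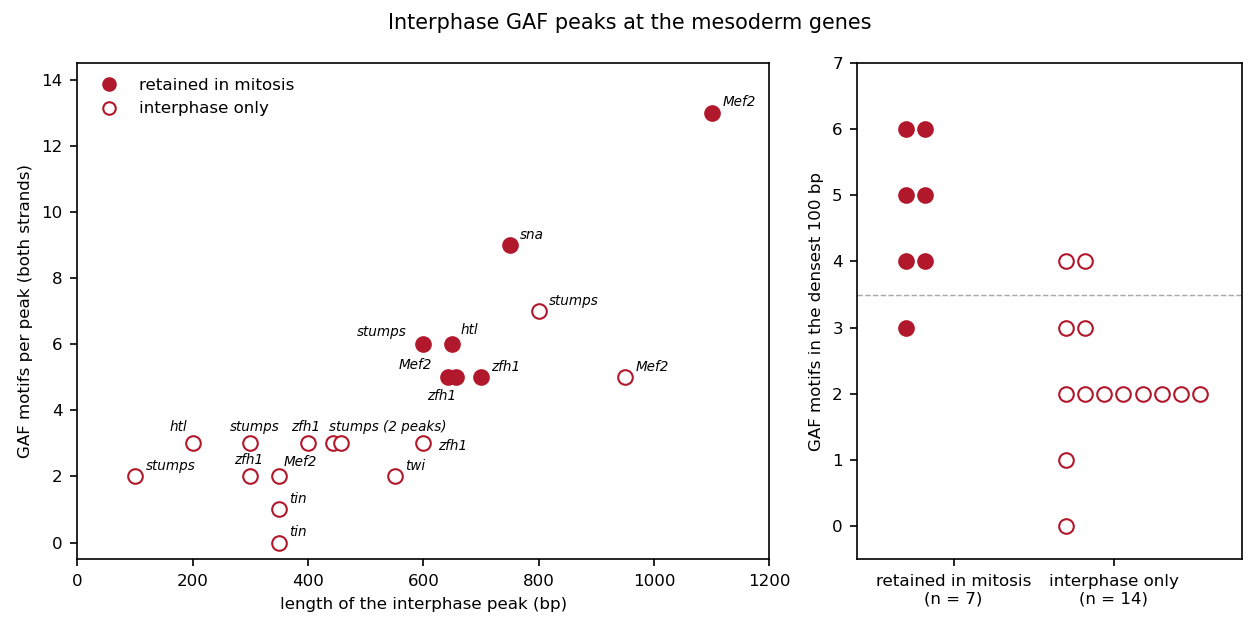
Left, GAGAG motifs (both strands) against the length of each of the 21 interphase GAF peaks, filled where retained in mitosis and open where interphase-only, with points of equal value set side by side. Right, motifs in the densest 100 bp of each peak, from 3 to 6 in the 7 retained and from 0 to 4 in the 14 interphase-only peaks, with a dashed line below 4.

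The motifs of retained peaks stood closer together by a measure that, like the number per peak, can rise with peak length. The densest 100 bp of a peak, a measure chosen after the values were seen, held 3 to 6 GAGAG in retained and 0 to 4 in interphase-only peaks, with means of 4.71 ± 1.11 and 2.21 ± 1.05. Over the whole list the means were 3.69 ± 1.71 and 2.71 ± 1.38. With 4 or more GAGAG in 100 bp, 6 of 8 peaks at the 7 genes were retained, beside 46.6% over the list, and with fewer 1 of 13, beside 23.1%. That 1 was the zfh1 promoter, with 3. These counts hold by the overlap of the GAF lists. The authors' list of retained peaks also holds the 200 bp htl peak, with 3 in its densest 100 bp. It holds as well the stumps peak near CG7987, with 2, and the Mef2-RF peak, with 4. Inside the retained peaks the mitotic part held 42 of 49 GAGAG (85.7%) in 54.9% of the bases, beside 78.7% in 44.0% of the bases over all 1552 retained peaks. The plot of motif positions shows these clusters near the peak centre at htl, stumps and sna, and away from it in the intronic Mef2 peak.

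**Figure D3:**
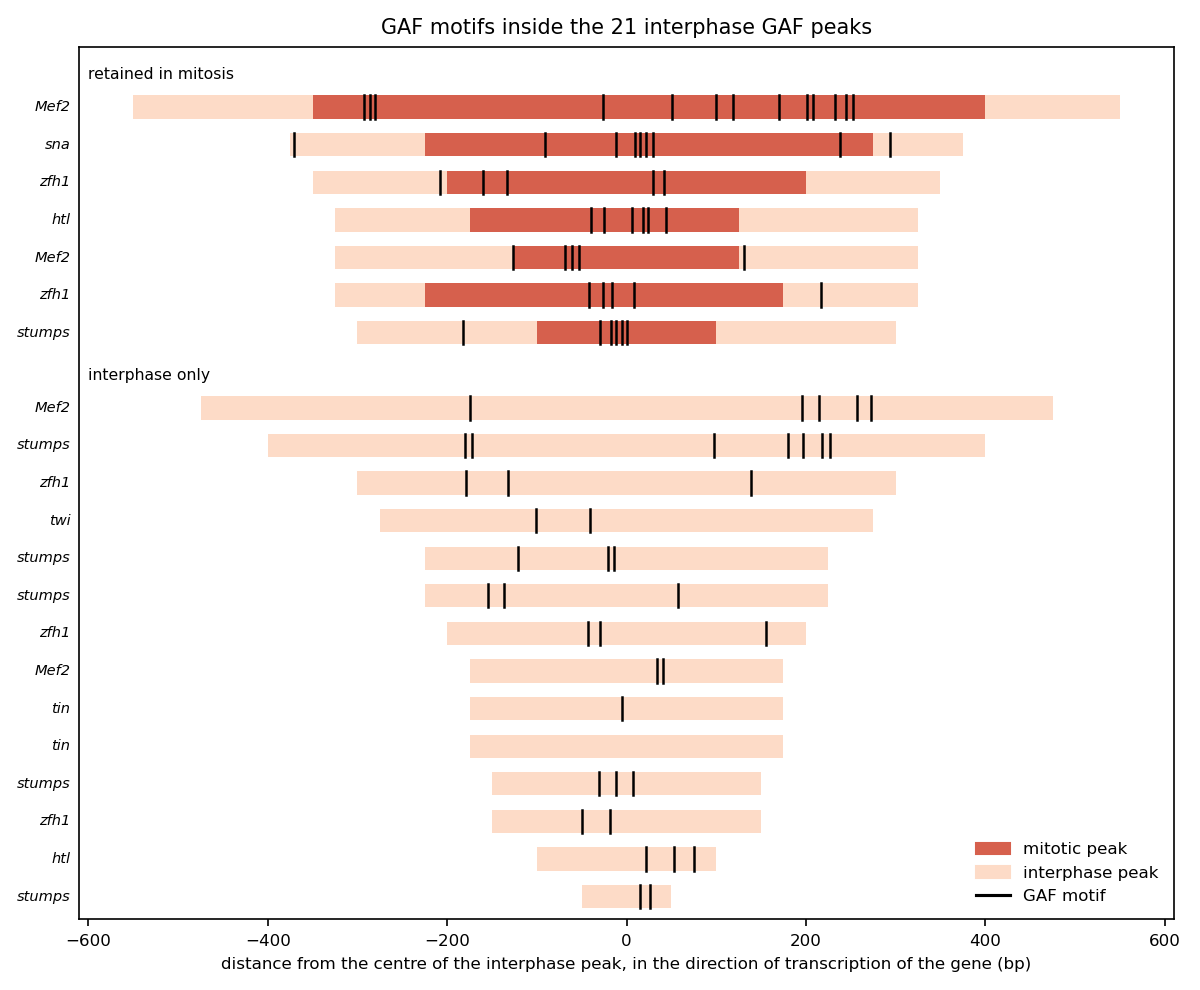
Positions of GAGAG motifs (black lines) along the 21 interphase GAF peaks (light bars), with the mitotic peaks inside them (dark bars), aligned at the peak centre in bp. All 13 motifs of the longest Mef2 peak and all 6 of the retained htl peak fall inside the mitotic peak, and the lower tin peak has none.

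Read from the sequence instead of from the peaks, GAGAG also stood outside called GAF peaks. The windows of the 7 genes held 399 GAGAG, of which 88 (22.1%) lay in interphase GAF peaks that made up 4.59% of the bases, at 7.82 per kb inside and 1.33 per kb outside the peaks. The same shares were not counted over other genes, so they are not a trait of these genes. Stretches with at least 4 GAGAG within 100 bp, the measure chosen after the values were seen, numbered 9 in the 244886 bp of the windows. A mitotic GAF peak overlapped 6 of the 9, an interphase GAF peak alone 2, and no GAF peak 1, beside 36.4% in mitotic and 43.6% in interphase GAF alone for 2346 such stretches of the major chromosome arms. The 6 were at sna, htl, stumps and zfh1 with 1 each and at Mef2 with 2. The 1 outside GAF peaks lay inside twi, 44 bp long with 4 GAGAG, with its centre at -15298.5 bp from the start of twi-RA.

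Letters of other early factors were few. CAGGTAG, the site of the genome activator Zelda, was found on either strand in 2 of the 21 interphase peaks, at sna and zfh1, beside 3.28% of all interphase GAF peaks. At sna it lay at -183 bp, followed the last GAGAG of the run with 0 bases between them, and was inside the mitotic peak. GGGAAANNC, a Dorsal site, was found in 2 of 21, again at sna and zfh1, beside 8.47%, and at sna it began at -166 bp. CACATG, the E-box bound by Twist, was found in 6 of 21, beside 20.2%, of which 2 were retained peaks, at Mef2 and zfh1. GAGAG itself was in 20 of 21, beside 96.7%. In windows from 250 bp before to 50 bp after a TSS, GAGAG was found at 9 of the 17 starts, beside 33.1% of protein-coding TSSs, and each of the other motifs at 1, beside 1.70% for CAGGTAG, 4.87% for GGGAAANNC and 10.3% for CACATG. These are matches of letters, and the binding of these factors was not measured.

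H4K8ac was called at all 7 genes in both stages, as at 72.3% of protein-coding genes in mitosis and 74.6% in interphase. Mitotic calls numbered 18 here, with lengths whose median was 1575 bp, and interphase calls 21, with a median of 650 bp, while over the whole lists the medians were 1150 and 1100 bp. A mitotic peak overlapped an interphase one in 16 of 18 cases, beside 78.3% of the list, and an interphase peak a mitotic one in 19 of 21, beside 74.0%. By bases the ground in both lists was 84.1% of the interphase but only 43.7% of the mitotic H4K8ac in the windows, beside 74.8% and 72.6% over the genome. H4K8ac calls came to 50186 bp in mitosis and 26086 bp in interphase of the 244886 bp searched, while over the genome the lists covered 13000900 bp in mitosis and 12605950 bp in interphase. At 6 of the 7 genes more of the window was covered in mitosis than in interphase, which held for 34.2% of protein-coding genes with an interphase GAF peak and 24.9% of all protein-coding genes. The latter include 3184 genes with no H4K8ac in the window in either stage, which could not have more in mitosis. The windows of the 7 genes take in neighbours, and mitotic H4K8ac peaks that reached into these windows covered starts of neighbouring genes. These were CG42741 beside twi, Tim17b2 beside sna, Pal1 and Pdrg1 beside Mef2, and mod(mdg4) beside tin. Beside stumps they were CG14852, CG31313, CG8066, CG8087 and Cys.

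By gene, H4K8ac covered 100% of the sna window in mitosis and 35.6% in interphase, and 41.7% of the tin window in mitosis and 16.2% in interphase. At stumps it was 27.0% in mitosis and 10.9% in interphase, and at twi 18.0% in mitosis and 8.50% in interphase. The difference was small at zfh1, with 11.1% in mitosis and 8.87% in interphase, and at htl, with 1.69% in mitosis and 1.13% in interphase. Mef2 was the exception, with 8.87% in mitosis and 10.9% in interphase. Taking twi from its twi-RA start, a choice made after the data were seen, gave 53.1% in mitosis and 31.5% in interphase of 12218 bp. The medians over protein-coding genes were 9.71% in mitosis and 11.5% in interphase. No H4K8ac peaks of a list lay closer than 2000 bp to each other. The labels of the H4K8ac lists give a joining gap of 2000 bp, whereas the study's methods give a maximum gap of 200 bp. Nearby stretches were thus joined in calling, and a wider call is not a measured rise in signal.

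**Figure D4:**
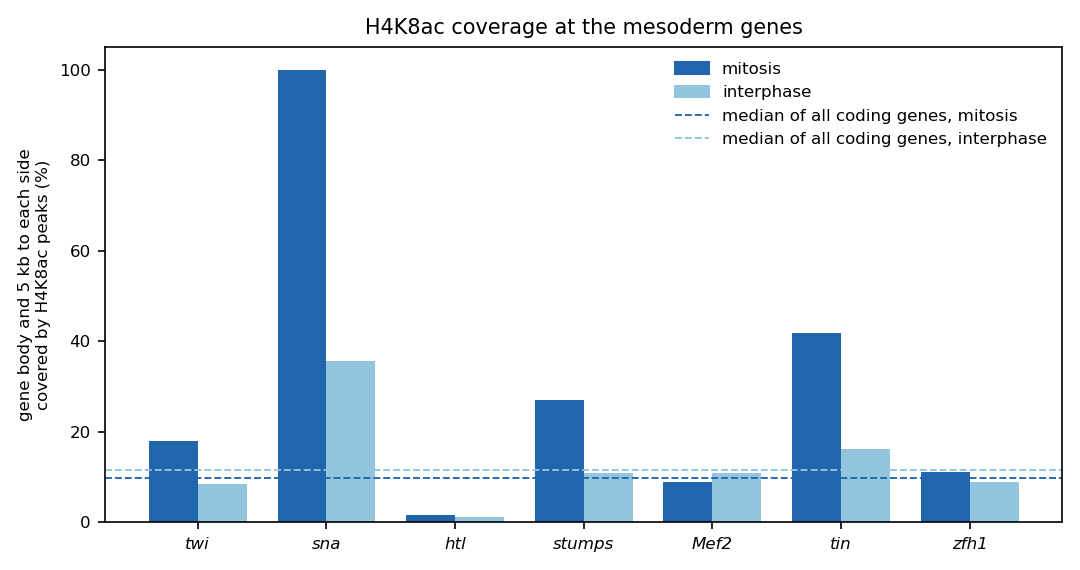
Percent of the gene body with 5 kb to each side covered by H4K8ac peaks, mitosis (dark) left of interphase (light) for each gene, with dashed lines at the medians over protein-coding genes (9.71% in mitosis and 11.5% in interphase). The sna, tin, stumps and twi bars are higher in mitosis, and Mef2 has the lower bar in mitosis.

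Most retained GAF peaks of these genes lay outside called H4K8ac. Of the 7 retained peaks 1, at sna, lay in mitotic H4K8ac, beside 41.1% of all retained peaks, and 1 in interphase H4K8ac, beside 36.7%. Of the 14 interphase-only peaks 4 lay in mitotic H4K8ac, beside 18.0%, and 3 in interphase H4K8ac, beside 16.9%. The intronic Mef2 peak missed mitotic H4K8ac by 50 bp and the zfh1 promoter peak by 150 bp. In the authors' list of retained peaks, the longer call at the intronic Mef2 peak does overlap mitotic H4K8ac. That list also holds the stumps peak near CG7987, in H4K8ac of both stages, and the Mef2-RF peak, in interphase H4K8ac. The retained peaks were a median of 850 bp from mitotic and 1650 bp from interphase H4K8ac, and the interphase-only peaks 300 and 900 bp. The 21 peaks as a set were a median of 300 bp from mitotic and 1050 bp from interphase H4K8ac, closer than the 3600 and 3650 bp over all interphase GAF peaks. Of the TSSs, 2 of 17 lay in mitotic H4K8ac, those of sna and stumps-RE, beside 33.7% of protein-coding TSSs, and 2 in interphase H4K8ac, those of sna and Mef2-RF, beside 34.2%. htl and zfh1 shared the pattern of mitotic and interphase GAF without H4K8ac at a TSS with 187 coding genes each, twi and tin that of interphase GAF without the other lists with 559 each, stumps that of mitotic H4K8ac without the other lists with 492, and Mef2 that of interphase GAF and interphase H4K8ac with 36.

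Other genes of mesoderm formation were counted in the same way. Of 33 listed genes 18 had a mitotic and 27 an interphase GAF peak, and 18 of the 27 had a retained one, beside the 42.8% of protein-coding genes given above, with peaks between neighbours counted for each. In the maternal dorsoventral pathway all 4 genes had interphase GAF, and 2 had a retained peak, the receptor gene Tl and the inhibitor gene cact, while dl, the gene of the Dorsal factor, and spz, that of the Toll ligand, had none. The FGF ligand genes differed from htl and stumps in having no mitotic GAF peak, with 0 GAF peaks at pyr and 3 interphase-only peaks at ths. Of 5 gastrulation genes, fog and RhoGEF2 had a retained peak, mist (mthl1) and cta an interphase-only one, and T48 no GAF peak. Of 6 other early mesoderm genes, how, Mes2 and NetA had a retained peak, if had interphase-only peaks, and Him and wntD had no GAF peak. Of 16 later regulators 11 had a retained peak (Doc2, Doc3, pnr, eve, lbe, lbl, slou, ap, mid, H15 and svp), bin, Doc1 and nau had interphase-only peaks, and bap and lmd had no GAF peak.

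Peaks near the edge of the search were few. The farthest ones inside lay 3475 bp (zfh1), 2376 bp (tin) and 1966 bp (stumps) from the gene body. The nearest ones left out lay 5498 bp (zfh1), 7466 bp (stumps) and 9142 bp (sna) away and were all interphase-only, and the nearest retained peak left out lay from 10166 bp (htl) to 52030 bp (tin) from the gene body.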

How the data were processed

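Mitotic and interphase GAF and H4K8ac ChIP-seq samples, each with its input, were mapped to their groups from the sample titles. According to the methods of the study and the submitters' processing notes, the authors trimmed reads at a quality of 20 with Cutadapt 1.16, dropped reads under 30 bp, aligned the others to dm6 by Bowtie2, made input-subtracted reads-per-million coverage in 50 bp bins, averaged it over replicates, and called peaks on that mean, with a threshold of 100 for GAF and 22 for H4K8ac. The deposited lists hold positions in bp and no score. The study gives sequencing depth as a range over all samples, so the depth behind each list is unknown. The authors' list of retained GAF peaks was used only as an alternative, and their list of H4K8ac peaks in both stages was not used. The former holds 2362 peaks, against 1552 retained by the overlap of the GAF lists. The methods of the study give the same rule as used here, an overlap of at least 1 bp with a mitotic peak. How a list of 2362 peaks came from the deposited calls could not be worked out, so retained shares given here are not those of the study.

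Positions were set against Ensembl release 115 and the RefSeq genome of the same build, with Python 3.11.15, NumPy 2.4.6, SciPy 1.17.1 and Matplotlib 3.10.9. Peaks overlapped when they shared at least 1 bp. GAGAG was counted on both strands without overlap. Overlap and motif steps were tested on simulated data. GAF peaks at the 7 genes were named one by one and H4K8ac peaks by gene, with the nearest coding gene where that was another. The genes and lists were chosen with earlier results of these data known, so counts are set beside all genes or peaks, with no test. Alternatives were other windows, overlap rules, peak lengths, merging and motif counts, and for twi, after seeing the data, a window from the twi-RA start.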

Additional observations from a re-analysis of the deposited data

How the results depend on the processing

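Of 60 alternatives to 10 results, 41 stayed within 1.5 times a count or within the spread of a mean or share, and 19 moved. The 5 genes with a retained peak held with every other window, with merging, with the nearest-TSS rule and with the authors' list of retained peaks, which overlapped 10 interphase peaks. An overlap of at least 50% of the interphase peak, or a reciprocal one, left 4 retained peaks at 3 genes. GAF peaks of at least 400 bp left 4 mitotic peaks, 4 retained peaks at 3 genes and 3 peaks in mitotic H4K8ac. Of the 5 interphase GAF peaks in mitotic and 4 in interphase H4K8ac, 3 and 2 remained with the gene body only, with a window of 1 kb, and with only peaks nearest to a TSS of the gene. The mean GAGAG number of retained peaks was 2.29 on the plus strand only and 12.6 with overlapping matches, and the numbers per kb are another unit and stand in the report. The share of genes with an interphase GAF peak was 35.4% over all annotated genes and 22.5% within 1 kb of protein-coding genes, and the share of those with a retained peak was 39.4% over all annotated genes. Starting twi at twi-RA changed no count of GAF peaks and left 16 mitotic and 19 interphase H4K8ac peaks at the 7 genes, against 18 and 21. No paired analysis was possible because each list pools its replicates, and leaving out a replicate was not possible for the same reason. Positions without scores allow no stricter threshold, so a peak missing in mitosis may be weak and not absent.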
